A study of Mus musculus with 2 samples.

Results

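Transcription factors that steer CD8 T cells between naive, memory and effector fates were followed in splenic CD8+CD122+ cells, set against CD8+CD122- cells. The 10 genes comprise the T-box factors Tbx21 (T-bet) and Eomes, the Runt-domain factors Runx1, Runx2 and Runx3, the inhibitors of DNA binding Id2 and Id3, the repressors Prdm1 (Blimp-1) and Zeb2, and the basic leucine zipper factor Nfil3 (E4BP4). Probes were taken wherever the gene name in either scanner file was one of these symbols or an older alias, which gave 25 probes for the 10 genes. The arrays held 41174 different probes, for 19109 genes that could be named. CD122 is a signalling subunit that the receptors of interleukin 2 and interleukin 15 share, known as their beta chain. Both populations were sorted from spleens of C57BL/6 mice, and no treatment is named. The age, sex and number of the mice, and any pooling, are not given in the sources used here. Amplified messenger RNA of CD8+CD122+ and CD8+CD122- cells was hybridised together on each of 2 Agilent arrays. Array 1 carried CD8+CD122+ in Cy5 and CD8+CD122- in Cy3, and array 2, labelled as a further trial, had the dyes exchanged. Precision is limited by the number of arrays, n = 2. Nothing says whether the trials used separate mice, so p-values and confidence intervals cannot be taken to measure the spread between mice. They rest on the spread between these arrays, which the limma model shares in part across all tested probes.

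T-box factors bind a shared core sequence through the T-box domain, and T-bet and Eomes are known to act together in CD8 T cells on cytotoxic and cytokine genes and on Il2rb, the gene of CD122 itself. Runx factors bind DNA with the common partner Cbfb, and Runx3 is known for silencing Cd4 and supporting the CD8 lineage. Id proteins bind E proteins and keep them off DNA. In responding CD8 T cells Id2, Prdm1 and Zeb2 are known for the effector side and Id3 and Eomes for the memory side, while Nfil3 is best known for its part in NK cell development.

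RNA of 4 of the 10 factors, Runx2, Tbx21, Nfil3 and Eomes, exceeded that of CD8+CD122- cells by 2-fold or more in CD8+CD122+ cells on each array, by at least 1 probe. Id2 had negative log2 ratios on both arrays by all 3 of its probes, each less than 2-fold as processed here. Runx1, Runx3 and Zeb2 had log2 ratios close to 0 on their brightest probes, and Id3 and Prdm1 had small positive ones. The 4 genes that were higher are introduced here by the sequence that lies before their annotated transcription start, because they were the members past 2-fold on both arrays. The sequences are those of RefSeq for GRCm38.p6, which pairs all 10 factors with 15 start sites, and give the 250 bases before the start on the strand of the gene. Runx2 has 1 such start, and whether its higher probes detect transcripts from that start was not analysed. Capitals mark CAGGTG, the E-box bound by Zeb factors, and TGNGGT, the core bound by Runx factors, on either strand (CACCTG and ACCNCA).
Tbx21, chr11:97115332-97115581, minus strand: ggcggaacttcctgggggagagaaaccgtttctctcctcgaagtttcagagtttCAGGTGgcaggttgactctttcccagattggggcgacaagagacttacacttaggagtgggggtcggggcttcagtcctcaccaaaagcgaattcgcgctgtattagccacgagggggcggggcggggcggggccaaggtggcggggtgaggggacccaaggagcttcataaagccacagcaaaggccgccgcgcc
Eomes, chr9:118477939-118478188, plus strand: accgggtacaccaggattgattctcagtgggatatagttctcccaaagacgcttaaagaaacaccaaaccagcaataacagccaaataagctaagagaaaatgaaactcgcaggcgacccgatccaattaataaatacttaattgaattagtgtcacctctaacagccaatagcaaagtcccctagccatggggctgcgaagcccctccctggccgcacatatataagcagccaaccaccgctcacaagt
Runx2, chr17:44814628-44814877, minus strand: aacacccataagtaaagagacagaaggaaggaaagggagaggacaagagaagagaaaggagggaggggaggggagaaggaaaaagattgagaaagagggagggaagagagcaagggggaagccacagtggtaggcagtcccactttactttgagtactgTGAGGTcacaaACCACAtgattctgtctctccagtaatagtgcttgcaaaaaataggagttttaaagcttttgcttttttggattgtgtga
Nfil3, chr13:52981040-52981289, minus strand: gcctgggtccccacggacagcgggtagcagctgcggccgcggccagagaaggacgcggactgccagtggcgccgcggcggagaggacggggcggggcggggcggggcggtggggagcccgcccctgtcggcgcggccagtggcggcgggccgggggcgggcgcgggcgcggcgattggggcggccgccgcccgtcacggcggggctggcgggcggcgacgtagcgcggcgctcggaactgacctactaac

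The Runx core occurred 2 times before the Runx2 start and in none of the other 3 windows. Factors that were not higher held it too, 2 times before a Runx3 start and 1 time before a start each of Id2, Prdm1 and Zeb2. Across 32851 promoters in the same reference, 40.1% held at least 1 such match in these 250 bases and 10.4% at least 2. The E-box CAGGTG occurred 1 time before the Tbx21 start, as it did in 17.2% of all promoters. It also occurred 1 time before a start each of Runx1, Runx3 and Prdm1, which were not higher. Just after the start, the Runx2 window and the upstream one of the 2 Runx1 windows each held 3 Runx cores within 50 bases. That density was found in 8 of the 32851 promoters (0.0244%). The count of 3 is the one seen in these same windows, so this share is a description and not a test. These short stretches are shown because Runx2 was higher in CD8+CD122+ cells and Runx1, with a like cluster, had ratios near 0.
Runx2, chr17:44814582-44814607, minus strand: acaACCACAgaACCACAagTGCGGTg
Runx1, chr16:92826032-92826061, minus strand: tggACCTCAtaaacaACCACAgaACCACAa
The T-box core GGTGTGA and the Nfil3 site TTANGTAA were, on either strand, in 0 of the 15 windows of 300 bases of the 10 factors. Across all promoters, 3.33% and 2.06% held them in the 250 bases before the start, and 0.554% and 0.225% in the 50 bases after it. With motifs this rare, 0 of 15 windows does not set the 10 factors apart. Matches of different motifs can overlap. A match of letters is a description of the window and not a mapped binding site.

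Values below are the scanner's background-subtracted and dye-normalised intensities in arbitrary units, which can be compared between populations on 1 array and 1 probe, followed by log2 ratios of CD8+CD122+ over CD8+CD122- from loess-normalised signals. A background offset of 50 shrinks the ratios of dim probes, so the folds given for dim genes tend to be smaller than without it. Without it, such ratios rest on signals near background, so how far dim genes differed is uncertain either way. Testing required that the scanner found at least 1 population, the same one on both arrays, well above background. It did so for 19 of the 25 member probes and for 30794 probes in all. A probe is called higher or lower here by size, at least 2-fold the same way on both arrays, which carries no p-value. By that rule 5 of 19 member probes were higher, where 0.253% of all tested probes were (78 of 30794), and 0 were lower, where 0.0812% of all were (25). In limma, with Benjamini-Hochberg adjustment over all probes, 0 of 19 member probes and 0 of 30794 probes passed the adjusted threshold of 0.05, and the lowest adjusted p among the members was 0.308. At an unadjusted p under 0.05 limma found 8 member probes, 6 with positive and 2 with negative ratios, against 6.12% of all probes. Ratios were above 0 on both arrays for 11 of the 19 probes (27.8% of all tested probes) and below 0 on both for 4 (25.6% of all). The median log2 ratio of the 19 member probes was 0.07, with 0.06 on array 1 and 0.10 on array 2, beside 0.00 over all tested probes. Each member probe has 1 spot per array, and no member spot was saturated.

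**Figure D1:**
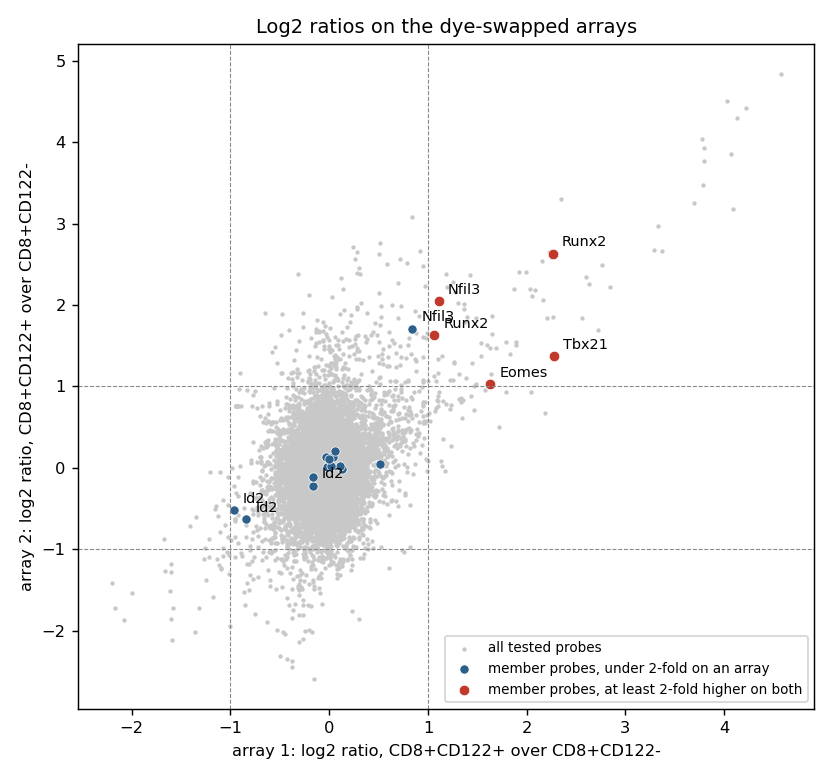
Each point is a tested probe, with its log2 ratio of CD8+CD122+ over CD8+CD122- on array 1 (horizontal) and on array 2 (vertical); grey points are all 30794 probes, coloured points the 19 member probes, and dashed lines mark 2-fold. The 5 red points of Runx2, Tbx21, Nfil3 and Eomes lie beyond 2-fold on both axes, the other Nfil3 probe falls short on array 1, and most other member probes lie near the origin.

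The arrays as a whole bear on the members as follows. Leaving out control spots, the scanner marked 76.4% as well above background for CD8+CD122+ and 69.5% for CD8+CD122- on array 1. On array 2 it marked 80.2% for CD8+CD122+ and 83.4% for CD8+CD122-. Il2rb, the gene of the sorted marker, had log2 ratios of 2.60 and 2.34, a mean 5.56-fold higher in CD8+CD122+ cells. All 6 markers of sorted CD8 T cells (Il2rb, Cd8a, Cd8b1, Cd3d, Cd3e and Cd3g) were detected above background in every channel, with a median log2 ratio of -0.31. Cd8a had -0.31 and -0.91, Cd8b1 -0.48 and -0.86, and Cd3g -0.39 and -0.60, each less than 2-fold. In RNA of a whole sorted population, fewer cells that express a gene and less RNA of it per cell cannot be told apart.

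Tbx21, the T-box factor that directs type 1 effector programmes, was measured by 1 probe (A_51_P501364). Its intensity was 27637 and 20624 in CD8+CD122+ cells on arrays 1 and 2, against 5032 and 7420 in CD8+CD122- cells. CD8+CD122+ cells were the brighter population on each array. The log2 ratio was 2.27 on array 1 and 1.37 on array 2, with a mean of 1.82 ± 0.64 (SD, n = 2 arrays; 3.53-fold higher), and limma's adjusted p was 0.624. The limma 95% confidence interval of the mean ran from 0.95 to 2.69. Like the other intervals given here, it is not adjusted for the number of probes tested. The probe ranked 37 from the highest of 30794. With median centring in place of loess the value on array 2 was 0.96, just under 2-fold.

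Eomes, its T-box relative linked to memory cells and NK cells, was also measured by 1 probe (A_51_P332309). CD8+CD122+ cells gave 5715 and 2880, and CD8+CD122- cells 1224 and 1072. CD8+CD122+ cells were again brighter on each array. The log2 ratio was 1.63 on array 1 and 1.02 on array 2 (mean 1.33 ± 0.43, SD, n = 2 arrays; 2.51-fold higher; limma's adjusted p 0.617). Eomes was the member nearest to the line of 2-fold from above, and fell short of it on array 2 with median centring (0.82), without background subtraction (0.88) and with scaling between arrays (0.88). Among 14 other genes of the T-box family, 12 were tested, 0 were 2-fold apart in either direction and the median log2 ratio was 0.00. Among all named genes 0.386% were higher and 0.141% lower by that rule, so 0 of 12 does not set the family apart. Several of the 12 were dim, such as Tbx4 with 191.5 in CD8+CD122+ and 163.9 in CD8+CD122- cells on array 1. The offset draws the ratios of such genes towards 0. Tbx6, a factor known from the embryonic mesoderm, stood furthest from 0 among the 12 tested, with -0.48 on array 1 and -0.91 on array 2.

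**Figure D2:**
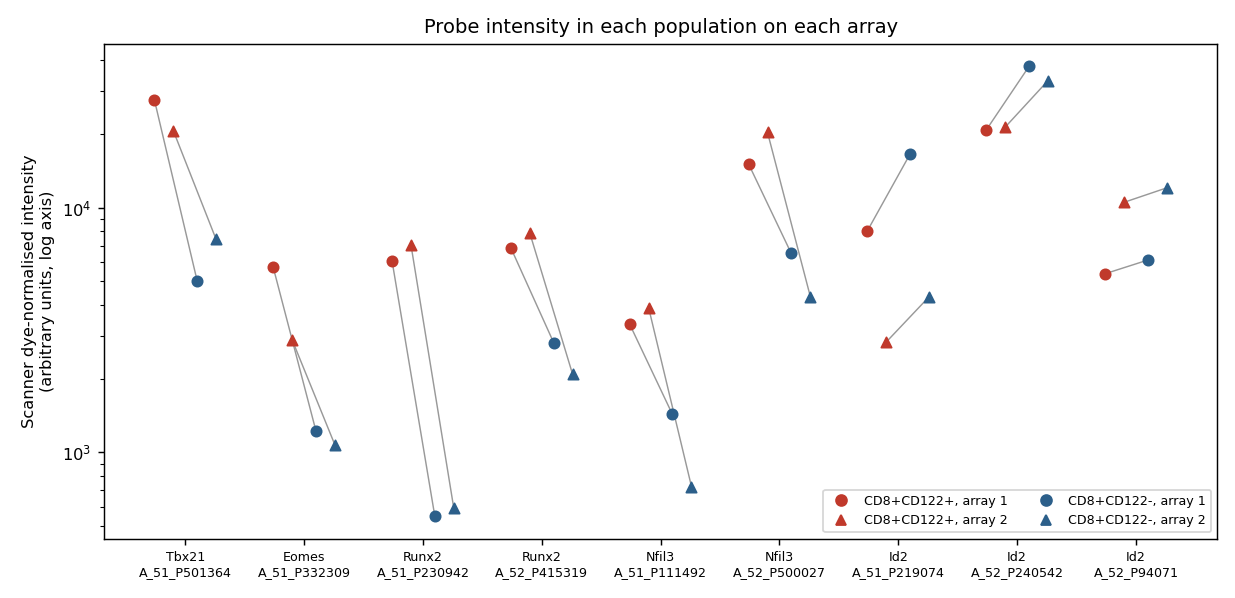
Scanner dye-normalised intensity (log axis, arbitrary units) of the probes of Tbx21, Eomes, Runx2, Nfil3 and Id2 in CD8+CD122+ cells (red, left) and CD8+CD122- cells (blue, right) on array 1 (circles) and array 2 (triangles); lines join the populations of 1 array. On each array the plotted Tbx21, Eomes, Runx2 and Nfil3 probes were brighter in CD8+CD122+ cells and the Id2 probes dimmer.

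Runx2, the Runt-domain factor best known for bone formation, had the highest mean ratio of the 10 factors. Its probe A_51_P230942 gave 6072 and 7017 in CD8+CD122+ cells, against 549.5 and 591.0 in CD8+CD122- cells. CD8+CD122+ cells were far brighter on each array. The log2 ratio was 2.27 on array 1 and 2.63 on array 2 (mean 2.45 ± 0.26, SD, n = 2 arrays; 5.46-fold higher; limma's adjusted p 0.308), with a 95% confidence interval from 2.06 to 2.84. It ranked 19 from the highest of all tested probes, and was 11.5-fold higher by the scanner's own ratios, which carry no offset. That fold rests on a weak signal in CD8+CD122- cells, 112.4 and 138.2 before subtraction over local backgrounds of 64 and 69. A further Runx2 probe, A_52_P415319, read 6853 and 7864 in CD8+CD122+ cells and 2812 and 2084 in CD8+CD122- cells. It had log2 ratios of 1.06 and 1.63 (mean 1.34 ± 0.40, SD, n = 2 arrays; 2.54-fold higher), less than the first probe on both arrays. Without background subtraction it had 0.99 on array 1 and fell just short of 2-fold.

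The other 2 Runx2 probes were not tested. A_52_P460545 was well above background only in CD8+CD122+ cells on array 1, with 212.5 and 136.1 in CD8+CD122+ cells against 128.1 and 79.3 in CD8+CD122- cells. A_52_P55876 was not well above background in either population, with 67.4 and 79.4 in CD8+CD122+ cells and 71.4 and 92.4 in CD8+CD122- cells. The bright probes and the dim ones cite different database records, and which transcript each probe detects was not analysed here.

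The other Runt-domain factors differed little. Runx1, known from blood stem cells and from thymocytes, gave 6354 and 5908 in CD8+CD122+ cells and 6456 and 5771 in CD8+CD122- cells on its brightest probe (A_52_P202358). Its log2 ratios were -0.02 and 0.01, with a 95% confidence interval of the mean from -0.20 to 0.18, and its other probe had -0.03 and 0.13. Runx3 gave 3641 and 2893 in CD8+CD122+ cells and 3533 and 2575 in CD8+CD122- cells on probe A_51_P494992. The populations were close to each other on each array. The log2 ratios were 0.04 and 0.13, and the mean of 0.08 ± 0.07 (SD, n = 2 arrays) had a 95% confidence interval from -0.13 to 0.30 (limma's adjusted p 0.911). A further probe (A_52_P666059), which the file of array 1 names Runx3 and that of array 2 names Dock5, had 0.13 and -0.01. Cbfb, the shared DNA-binding partner of all Runx factors, had -0.04 on array 1 and -0.65 on array 2 by its brightest probe. The other Cbfb probe had a mean log2 ratio of -0.03. Zbtb7b (ThPOK), which Runx3 silences in CD8 cells, was on the array and not tested, because it did not pass the background filter.

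Nfil3 had positive log2 ratios by both of its probes, and by the brighter one passed 2-fold on each array. The brighter one, A_52_P500027, read 15112 and 20302 in CD8+CD122+ cells and 6502 and 4337 in CD8+CD122- cells. Its log2 ratios were 1.11 and 2.05 (mean 1.58 ± 0.66, SD, n = 2 arrays; 2.98-fold higher; limma's adjusted p 0.671). The dimmer one, A_51_P111492, read 3341 and 3890 in CD8+CD122+ cells and 1430 and 725.3 in CD8+CD122- cells. Its log2 ratios of 0.84 and 1.71 place it just below 2-fold on array 1. It passed 2-fold on both arrays with median centring, with an offset of 16 and with the scanner's ratios. Of the factors whose probes were higher, Tbx21 and Eomes had the larger ratio on array 1, and both bright Runx2 probes and both Nfil3 probes on array 2. For Runx2 this order depended on the processing: with median centring array 1 had the larger ratio by A_51_P230942 (2.47 and 2.38) and by A_52_P415319 (1.32 and 1.31), and with scaling between arrays by A_51_P230942 (2.65 and 2.25). The PAR domain factors Dbp, Tef and Hlf, which bind sites like those of Nfil3, had mean log2 ratios of -0.11, -0.06 and 0.05.

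**Figure D3:**
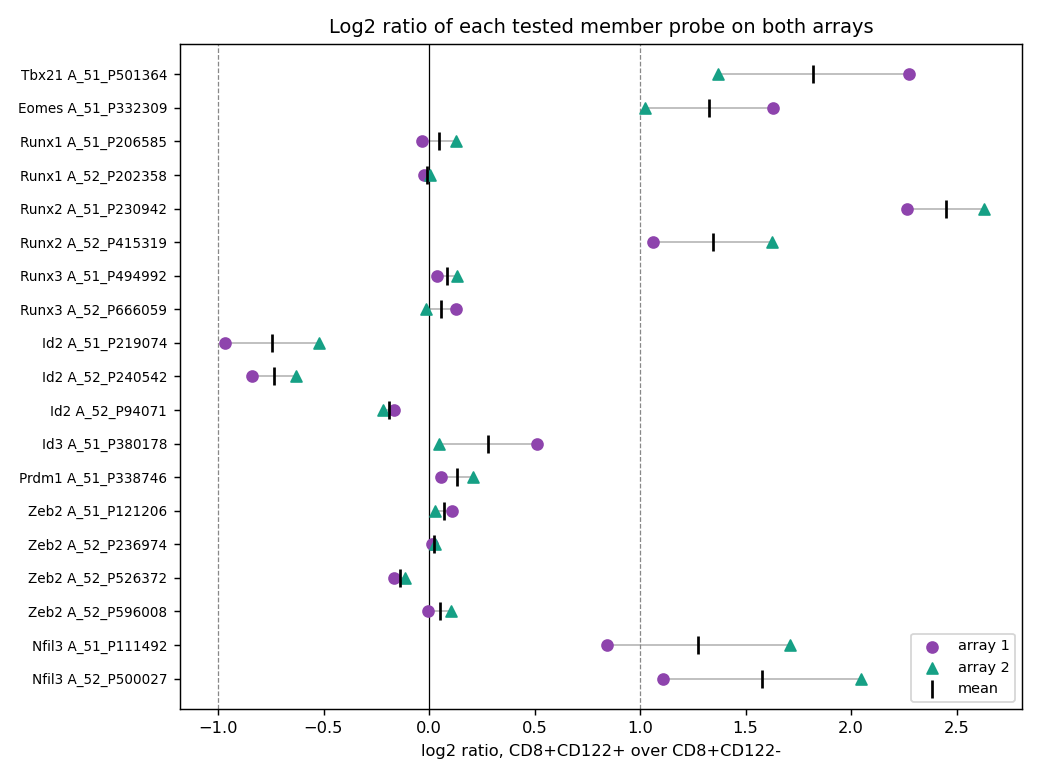
Log2 ratio of CD8+CD122+ over CD8+CD122- for each of the 19 tested member probes on array 1 (circles) and array 2 (triangles), with the mean as a tick; dashed lines mark 2-fold. The 5 probes beyond 2-fold on both arrays belong to Tbx21, Eomes, Runx2 and Nfil3, and the 3 Id2 probes lie left of 0 on both arrays.

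Id2, which keeps E proteins off DNA and is abundant in effector CD8 T cells and NK cells, gave negative log2 ratios on all 3 probes. Its brightest probe, A_52_P240542, gave 20775 and 21358 in CD8+CD122+ cells, against 37786 and 33069 in CD8+CD122- cells. CD8+CD122+ cells were dimmer on each array, and the log2 ratio was -0.84 on array 1 and -0.63 on array 2 (mean -0.73 ± 0.15, SD, n = 2 arrays; 1.66-fold lower; limma's adjusted p 0.554). Its 95% confidence interval ran from -1.01 to -0.46. With median centring this brightest probe passed 2-fold on array 2 alone (-1.07). Probe A_51_P219074 gave 8045 and 2830 in CD8+CD122+ cells and 16592 and 4330 in CD8+CD122- cells. Its log2 ratios were -0.97 and -0.52. On array 1 alone it passed 2-fold with the scanner's ratios (-1.04), an offset of 16 (-1.01) and scaling between arrays (-1.13). The last probe, A_52_P94071, named by a clone record in one file, gave 5373 and 10524 in CD8+CD122+ cells and 6112 and 12060 in CD8+CD122- cells, with log2 ratios of -0.16 and -0.22. With median centring in place of loess this probe turned to 0.11 on array 1, with -0.62 on array 2. All 3 were below 0 on both arrays, as were 25.6% of all tested probes, and the brightest ranked 158 from the lowest.

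Id3, the Id protein linked to memory precursors, gave 3988 and 2419 in CD8+CD122+ cells and 2517 and 2264 in CD8+CD122- cells. The log2 ratio was 0.51 on array 1 and 0.05 on array 2, so the difference rests on array 1 (mean 0.28 ± 0.33, SD, n = 2 arrays; limma's adjusted p 0.885). By the brightest probe, the E proteins that Id2 and Id3 bind had mean log2 ratios of 0.13 (Tcf3, which encodes E2A), -0.05 (Tcf4) and 0.34 (Tcf12, which encodes HEB), and Id1 had -0.08. The tested Tcf4 probes ranged from -0.37 to 0.05.

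Prdm1, which encodes Blimp-1, a transcriptional repressor found in terminal effector cells and plasma cells, was dim. Its probe gave 250.4 and 336.7 in CD8+CD122+ cells and 243.1 and 230.8 in CD8+CD122- cells, with log2 ratios of 0.06 and 0.21. The scanner's own log2 ratios, without the offset, were 0.04 and 0.55. Bcl6, the repressor that opposes Blimp-1 in lymphocytes, had -0.47 on array 1 and -1.14 on array 2 (mean -0.81 ± 0.48, SD, n = 2 arrays; limma's adjusted p 0.769), below 2-fold on array 1.

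Zeb2, a zinc finger repressor that acts with T-bet in terminal effector cells, had 8 probes, of which 4 were tested. The brightest, A_52_P596008, gave 1943 and 2538 in CD8+CD122+ cells and 1995 and 2315 in CD8+CD122- cells. Its log2 ratios were -0.004 and 0.10, with a 95% confidence interval of the mean from -0.17 to 0.27. Probe A_52_P236974 had 0.02 and 0.03, A_51_P121206 had 0.11 and 0.03, and A_52_P526372, filed under a clone name, had -0.16 and -0.12. The last was well above background in CD8+CD122+ cells on array 1 only, and its mean log2 ratio by the scanner was -0.69. Of the 4 untested Zeb2 probes, A_51_P207801 and A_52_P587928 were below the background limit in both populations on both arrays. A_51_P106893 passed it only in CD8+CD122- cells on array 2, and A_52_P252641, which the file of array 1 names Mak, passed it in both populations on array 2 only. Zeb1, the relative of Zeb2 that prevails in naive cells, had -0.08 and -0.29.

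Around the 10 factors, genes of their network were read by the brightest probe of each gene, among 16318 named genes of which 0.386% were 2-fold higher on both arrays and 0.141% lower. Of 14 partners and counterparts (Cbfb, E proteins, Id1, Zeb1, Bcl6, PAR factors and corepressors among them), 12 were tested and 0 were higher or lower, with a median log2 ratio of -0.07. Of 14 other factors of effector and memory CD8 T cells, 12 were tested, 1 was higher and 0 lower, with a median of 0.29. The higher one was Hopx, a small homeodomain protein gene found in type 1 effector T cells, at 1.64 and 1.15 (2.63-fold; limma's adjusted p 0.551). Myb, which upholds stem-like memory cells, had 0.52 on array 1 and 1.86 on array 2, and Irf4, a factor induced by T cell receptor signals, 0.08 and 1.36. The Irf4 difference rests on array 2, and the other Myb probes averaged as low as 0.09. Bhlhe40, a factor known from tissue-resident T cells, had probes that went opposite ways, with -0.28 on average by the brightest and 1.72 by the other. Gata3 had like values on both arrays, 0.65 and 0.72.

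Of 14 known targets of T-bet and Eomes, 8 were higher in CD8+CD122+ cells, beside the 0.386% above, and 0 were lower. Their median log2 ratio was 1.60, beside 0.00 over all named genes. This list, like the others, was chosen with earlier results of these data known, so the contrast is a description and not a test. The 8 higher genes were Ccl5, Ccl4, Ifng, Cxcr3, Il2rb, Fasl, Xcl1 and Ccl3, in falling order of their mean ratio, and Il2rb is the gene of the sort itself. Fasl was higher by its brightest probe only, and its other probe had a mean log2 ratio of 0.33. Il18r1 was below 2-fold on array 2 alone, with 2.04 and 0.93, and its other probe averaged -0.10. Among targets marking terminal effector cells, Klrg1 had 0.09 and 0.23, Cx3cr1 0.06 and 0.04, and S1pr5, a migration receptor, 0.23 and 0.48. S1pr5 and Klrg1 are dim, so the offset bears on them: S1pr5 intensities were 364.8 and 494.0 in CD8+CD122+ cells and 194.4 and 176.0 in CD8+CD122- cells, and those of Klrg1 were 302.2 and 425.8 in CD8+CD122+ cells and 209.2 and 281.9 in CD8+CD122- cells. The cytotoxic genes Gzmb (0.27 and 1.34) and Prf1 (0.53 and -0.26) differed between the arrays. Of 10 known Runx3 targets 9 were tested. Ifng, Xcl1 and Eomes were higher, and Itgae, an integrin gene that Runx3 activates in CD8 T cells, was lower at -2.08 and -1.86 (3.92-fold), with -1.03 on average by its other probe. Cd4, which Runx3 silences, had 0.09 and -0.12, and Cd8a and Cd8b1, also on this list, had the negative ratios given above. Of 14 targets of Id proteins, E proteins and Zeb2, only Cxcr5 was higher, at 1.36 and 2.01 (3.22-fold), and 0 were lower. The lists share members, so their counts do not add up.

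**Figure D4:**
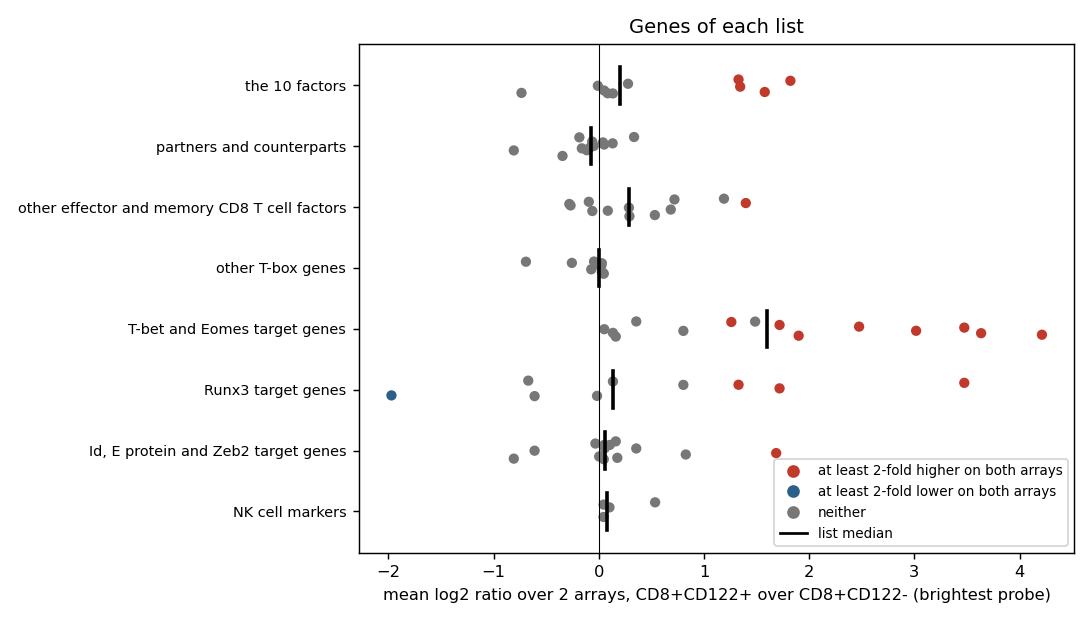
Mean log2 ratio over 2 arrays of CD8+CD122+ over CD8+CD122- for the brightest tested probe of each gene, by list; red and blue points passed 2-fold on both arrays (red higher, blue lower), grey points did not, and black ticks are list medians. The list of T-bet and Eomes targets has its median at 1.60, and the medians of the partners (-0.07), other T-box genes (0.00) and NK cell markers (0.07) lie near 0. Several of the other T-box genes were dim, and the offset draws their ratios towards 0. The lists were chosen with earlier results of these data known.

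Eomes, Nfil3, Id2 and Zeb2 are also used by NK cells, dendritic cells or myeloid cells, so markers of those cells are given beside them. Of 7 NK cell markers 6 were found on the array and 0 of the 4 tested were 2-fold apart. By that rule 0.386% of all named genes were higher and 0.141% lower, so 0 of 4 does not set these markers apart. The summed scanner intensity of the 6 was 10214 and 9320 in CD8+CD122+ cells on arrays 1 and 2, against 9289 and 8331 in CD8+CD122- cells. Most of each sum was Fcer1g, at 7257 and 6369 in CD8+CD122+ cells and 7058 and 6011 in CD8+CD122- cells. Ncr1, the marker that defines NK cells, was not well above background in either population on either array, and the adaptor gene Fcer1g had log2 ratios of 0.04 and 0.05. Klrk1, a receptor gene of NK cells that memory CD8 T cells also use, had 0.51 and 0.56, with intensities of 807.5 and 946.2 in CD8+CD122+ cells against 349.3 and 415.2 in CD8+CD122- cells. The 7 myeloid markers summed to 10045 and 13287 in CD8+CD122+ cells and 8161 and 12068 in CD8+CD122- cells, with Lyz2 at 0.77 and 0.33. The 7 dendritic cell markers summed to 25026 and 18755 in CD8+CD122+ cells and 19733 and 17093 in CD8+CD122- cells, and Cd209a was not well above background in either. Their largest part was Bst2, with 15542 and 9472 in CD8+CD122+ cells and 14796 and 11311 in CD8+CD122- cells. Another of the 7, Zbtb46, a factor of classical dendritic cells, was 2.58-fold higher (1.44 and 1.29). Its intensities were 6145 and 4799 in CD8+CD122+ cells and 1678 and 1557 in CD8+CD122- cells. Flt3 had 0.07 and 0.03, Siglech 0.06 and 0.00, and H2-Aa -0.11 and -0.02. Itgax had 0.01 and 0.05 on its brightest probe and 0.84 on average on the other. For plasma cells and B cells, which use Prdm1, 7 of 8 markers summed to 8199 and 6580 in CD8+CD122+ cells and 8765 and 8148 in CD8+CD122- cells. Their largest part was Cd79b, with 3932 and 2184 in CD8+CD122+ cells and 4692 and 4227 in CD8+CD122- cells (log2 ratios -0.20 and -0.76). Of the 6 tested B and plasma cell markers, 3 were above 0 on both arrays and 2 below 0 on both. The part of such cells in the values of the factors was not tested.

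The genes whose pair of ratios lay nearest to each higher probe, among named genes of like brightness (within 1 log2 unit), were sought over the 2 arrays. This is a description from 2 values a gene. Nearest to Runx2 (A_51_P230942) were Cd44, at 2.22 and 2.65, Wdr95 and Klrc1, at distances of 0.05, 0.15 and 0.36 log2 units. For Tbx21 the nearest were Ly6c1, Chsy1 and Il18r1 at 0.40, 0.48 and 0.50. Eomes lay close to Tmem37 (1.60 and 1.05), Klra9 and Hopx at 0.04, 0.08 and 0.13. For the other Runx2 probe the nearest were Ahnak, Rnf138 and the dimmer probe of Nfil3 (0.09, 0.12 and 0.24), and for the brighter Nfil3 probe Rnf138, Cks2 and S100a4 (0.20, 0.24 and 0.24).

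**Figure D5:**
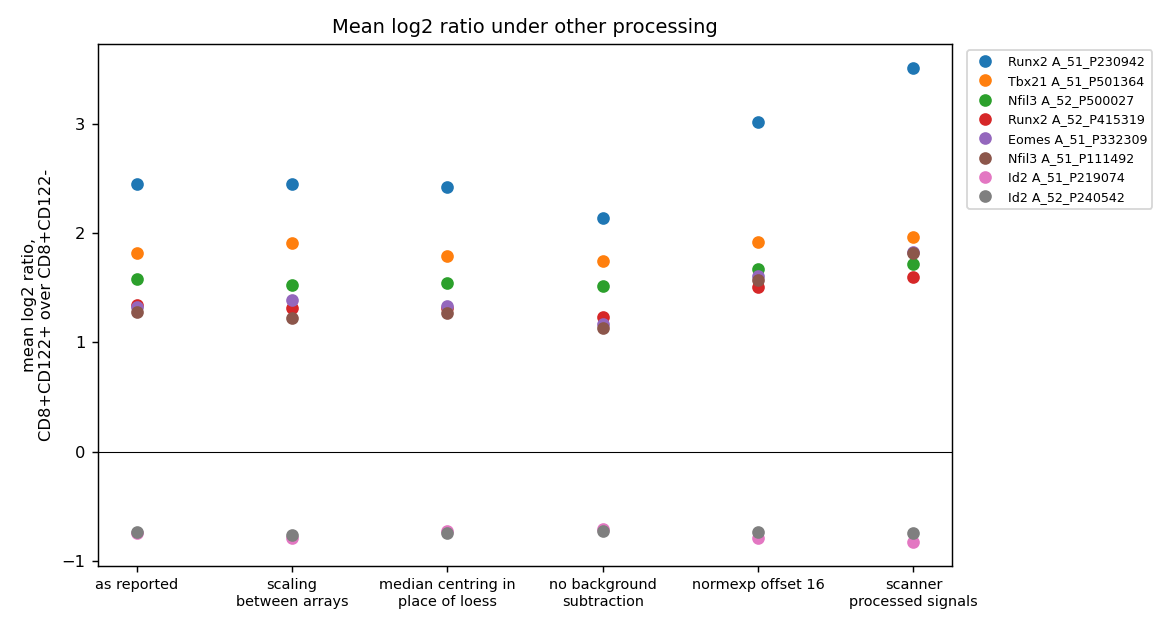
Mean log2 ratio of CD8+CD122+ over CD8+CD122- over 2 arrays for 8 member probes, as reported and under 5 other ways of processing. The Runx2 probe A_51_P230942 has the highest value under each of the 6, from 2.14 without background subtraction to 3.52 with the scanner's signals, and both Id2 probes stay below 0.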

How the data were processed

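Agilent arrays with both populations on each were read from the deposited scanner files, made with Agilent Feature Extraction (an older version on array 1 than on array 2), per the file headers. They hold linear intensity values of spots and local background, flags per spot, and log10 ratios of the red over the green dye, per the file headers. The deposited value table is log10 too. It matches the scanner's ratio after a change of sign on array 1 only (column medians 0), so by the labels it runs CD8+CD122- over CD8+CD122+, opposite to the direction used here. No source used here says whether it was centred or names a build.

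RefSeq (GRCm38.p6) named 32011 of 41174 probes (77.7%). The 2 probes named Sip1 belong to Gemin2 by accession and were dropped. Mean signals were corrected with normexp (offset 50), normalised by loess with controls at weight 0, averaged over spots, and turned to log2 of CD8+CD122+ over CD8+CD122- (limma 3.58.1, R 4.3.3). Outlier spots were left out and saturated ones kept. limma (lmFit and eBayes) had 1 residual degree of freedom, and a dye term would leave 0. The steps were tested on simulated data. The 10 factors, lists and rules were chosen with earlier results of these data known. The rule named all members, Il2rb, Cbfb, Tcf3, Zeb1, Bcl6, Zbtb7b, the genes of each list past the rule of size (at most 6 a list) and the 3 nearest genes of each higher probe. Other genes were named after their values were seen. Alternatives were other normalisation, background, offset, filter and variance settings, and each array alone.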

Additional observations from a re-analysis of the deposited data

How the results depend on the processing

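Each log2 ratio is already paired, since both populations share an array. The 5 higher member probes kept positive means, and the 3 Id2 probes negative means, under the 9 alternatives tried and on each array alone, although Id2 A_52_P94071 was at 0.11 on array 1 with median centring. Limma called 0 member probes in each; the smallest adjusted p of a member was 0.105. With an offset of 16 limma called 6 probes among all, 120 probes were higher and 42 lower by size, and the member median was 0.11. With the scanner's processed signals 199 were higher and 85 lower, and the member median was 0.11. Median centring left 16 lower. Without background subtraction 3 member probes were higher, the probes of Eomes and Runx2 (A_52_P415319) falling short. On a single array, 109 to 336 probes were higher in all and 42 to 219 lower, 5 to 6 member probes were higher, and the member median was 0.0583 to 0.1045. Signal over background limits Prdm1, the dim Runx2 probes and most Zeb2 probes, whose ratios near 0 do not show equal expression.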
